A study of Homo sapiens with 6 samples.

Results

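The genes RTN1, CD68, KCNMA1, LPAR3 and MLLT3 are described here, whose RNA level moved in opposite directions when 2 prostate cancer lineages became resistant to taxanes. These 5 members were taken from a list and had to differ from the parent by a log2 ratio of 1 or more in size in all 4 resistant lines, with one sign in the C4-2B lineage and the other in the DU145 lineage. They were therefore chosen on the values given below, which are a description and carry no test. All 5 reached 1 FPKM (fragments scaled for transcript length and library size) in at least 1 library, as did 17436 of the 60658 identifiers listed. Over those 17436 measured genes, 18 met the same rule, so the members are 5 of 18.

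Each of 6 cell lines gave 1 library. The C4-2B lineage starts from C4-2B, an LNCaP derivative that grows after castration, and the DU145 lineage from DU145, a separate prostate carcinoma line. TaxR (docetaxel-resistant C4-2B) and DTXR (docetaxel-resistant DU145) were kept under 5 nM docetaxel, and cabazitaxel at 5 nM was used for CabR, derived from TaxR, and for CTXR, derived from DTXR, while all cells were untreated just before harvest. The design asks how resistant cells differ from their parents. Each resistant line is a single derivative of its parent, the title of the TaxR library carries the unexplained word old, and CabR and CTXR share the history of the docetaxel-resistant line they came from. With 1 library per line nothing has a replicate check, and p-values are not given.

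Taxanes stabilise microtubules and arrest dividing cells, and cells selected under them are usually studied for drug efflux, tubulin changes and survival signals. The 5 genes are of other kinds. RTN1 encodes a reticulon, a hairpin membrane protein that shapes endoplasmic reticulum (ER) tubules and is typical of neurons and neuroendocrine cells. CD68 encodes a heavily glycosylated lysosomal membrane protein of the LAMP family, best known as a macrophage marker but also made by other cells. KCNMA1 encodes the pore-forming alpha subunit of the BK channel, a potassium channel opened by voltage and calcium. LPAR3 encodes a G protein-coupled receptor for the lipid mediator lysophosphatidic acid, and MLLT3 (also called AF9) a reader of acetylated and crotonylated histones that joins the super elongation complex and the DOT1L histone methyltransferase.

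All 5 genes are protein-coding and lie on different chromosomes of GRCh38. RTN1 (ENSG00000139970) lies on chromosome 14 from 59595976 to 59870966, and CD68 (ENSG00000129226) on chromosome 17 from 7579467 to 7582113. KCNMA1 (ENSG00000156113) lies on chromosome 10 from 76869601 to 77638369. LPAR3 (ENSG00000171517) is on chromosome 1 from 84811602 to 84893213, and MLLT3 (ENSG00000171843) on chromosome 9 from 20341665 to 20622543. CD68 is on the plus strand and the other 4 genes on the minus strand. The gene spans run from 2647 bases for CD68 to 768769 for KCNMA1. The stretches just upstream of annotated starts are shown so that the start regions of the 4 genes with one pattern can be compared with that of RTN1. They come from RefSeq windows of 250 bases (GRCh38.p14), without any base that GENCODE 29 annotates as untranslated region of the same gene. For KCNMA1 such bases fill the whole window at its most upstream start, so the intronic window at its second start is shown. Capitals mark AP-1 sites, GC boxes, CCAAT boxes and TATA boxes on either strand, of which the printed stretches of RTN1 and CD68 hold none.
RTN1 (chr14:59870967-59871026, minus strand): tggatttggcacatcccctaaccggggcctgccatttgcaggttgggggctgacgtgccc
CD68 (chr17:7579388-7579466, plus strand): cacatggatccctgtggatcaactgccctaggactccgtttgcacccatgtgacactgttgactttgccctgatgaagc
KCNMA1 (chr10:77350762-77351011, minus strand): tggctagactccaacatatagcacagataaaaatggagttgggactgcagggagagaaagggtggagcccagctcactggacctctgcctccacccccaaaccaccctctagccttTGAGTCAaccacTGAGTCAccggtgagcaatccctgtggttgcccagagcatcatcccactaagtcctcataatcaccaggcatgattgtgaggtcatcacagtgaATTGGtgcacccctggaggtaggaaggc
LPAR3 (chr1:84893214-84893456, minus strand): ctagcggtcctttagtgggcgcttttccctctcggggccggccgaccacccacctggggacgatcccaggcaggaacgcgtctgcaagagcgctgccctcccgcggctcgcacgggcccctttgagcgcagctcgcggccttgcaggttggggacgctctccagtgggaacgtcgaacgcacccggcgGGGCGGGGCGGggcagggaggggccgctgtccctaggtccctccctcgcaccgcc
MLLT3 (chr9:20622544-20622749, minus strand): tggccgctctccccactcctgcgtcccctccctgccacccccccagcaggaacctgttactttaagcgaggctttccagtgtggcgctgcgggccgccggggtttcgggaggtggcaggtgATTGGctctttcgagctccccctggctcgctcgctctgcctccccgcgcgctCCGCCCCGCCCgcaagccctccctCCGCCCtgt

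The start regions differed in composition. In the full 250-base windows, the GC content was 66% at the most upstream start of RTN1, 51.6% for CD68, 85.6% at the most upstream start of KCNMA1, 71.2% for LPAR3 and 72% for MLLT3, against a median of 58% over 35116 windows. CpG dinucleotides numbered 19 for RTN1, 46 for KCNMA1, 27 for LPAR3 and 24 for MLLT3, and only 1 for CD68, against a median of 11. The second KCNMA1 start, shown above, also held 1 CpG at 53.6% GC. RTN1 has 2 more starts, with 74% GC, 34 CpG and 1 GC box at the second and 44.4% GC and 1 CpG at the third. Motifs were searched on both strands. The GC box GGGCGG, present in 42.6% of windows, occurred 6 times at the upstream KCNMA1 start, 2 times for LPAR3 and 3 times for MLLT3, counting overlaps. The AP-1 site TGANTCA, present in 6.57% of windows, occurred 1 time for CD68, in the part not printed, and 2 times at the second KCNMA1 start. The CCAAT box CCAAT, present in 32.0% of windows, occurred 1 time each for RTN1 (in the part not printed), MLLT3 and the second KCNMA1 start. Neither the TATA box TATAAA (10.7% of windows) nor the E-box CACGTG (6.34%) was found in these windows. The letters TGANNNNGC, present in 35.2% of windows, occurred 3 times for CD68 and in no other member. They are a loose form of the core of antioxidant response elements, so a match need not hold that core. These are matches of letters and do not show binding.

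Total FPKM lay between 711766 and 818430 per library, and 13418 to 14270 genes reached 1 FPKM. Read depth is unknown. The lines matched their lineage markers: 10 marker genes of the C4-2B side summed to 2483 to 5320 FPKM in the C4-2B lineage and 9.22 to 14.0 in the DU145 lineage. KLK3 alone had 3567 FPKM in C4-2B. By a log2 ratio of 1 or more in size, 1 of the 10 was lower in TaxR and 4 in CabR. Of all measured genes 5.64% and 6.2% were. TaxR carried low levels of DU145-side transcripts. Of 10 such markers 8 were above C4-2B by a log2 ratio of 1 or more in TaxR, where 2.52% of all measured genes were, and none was in CabR, where UCHL1 (0.86) and DKK1 (0.80) came nearest. In TaxR 37 genes near 0 in C4-2B and CabR had a median of 1.11% of their DU145 level, with single genes between 0 and 3.57%. Mitochondrial genes took 17.9% of total FPKM in C4-2B, 26.5% and 27.9% in its resistant lines and 35.3% to 40.7% in the DU145 lineage, and their part in the results was not tested beyond the rescaling given at the end.

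RTN1, the reticulon gene, was the only member that was higher in the resistant C4-2B lines and lower in the resistant DU145 lines. Its level was 0.236 FPKM in the C4-2B parent with 1.75 (TaxR) and 1.61 (CabR) in its sublines, and 15.8 FPKM in the DU145 parent with 1.48 (DTXR) and 0.529 (CTXR) in its sublines. DU145 stood far above the other 5 libraries, and C4-2B was the lowest. The log2 ratios of (FPKM + 1) to the parent were 1.15 in TaxR and 1.08 in CabR, and -2.76 in DTXR and -3.46 in CTXR. In a bulk library, fewer cells with the RNA and less RNA per cell cannot be told apart. The difference in the C4-2B lineage is one between low levels: RTN1 was at the 12.3 percentile of measured genes in C4-2B and reached 1.75 FPKM at most. In the other lineage its percentile was 68.2 for DU145 and 12.9 for CTXR. Subtracting 1.11% of the DU145 level from TaxR took 0.175 FPKM off RTN1 and left a log2 ratio of 1.06. With the highest share of any single gene, 3.57%, the ratio was 0.82, under the size rule, and the other 4 members stayed past it.

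CD68, the LAMP-family gene, was at similar levels in the parents and far apart in the resistant lines. It had 6.81 FPKM in the C4-2B parent with 2.44 (TaxR) and 0.862 (CabR) in its sublines, and 9.07 FPKM in the DU145 parent with 82.4 (DTXR) and 25.8 (CTXR) in its sublines. The 3 libraries of the DU145 lineage were all above the 3 of the C4-2B lineage. The log2 ratios were -1.18 (TaxR) and -2.07 (CabR) on one side and 3.05 (DTXR) and 1.41 (CTXR) on the other. DTXR was the extreme, where CD68 reached the 94.2 percentile of measured genes, and CTXR lay below DTXR by a log2 ratio of -1.64. Of 17 macrophage and leukocyte markers, 9 to 14 were listed at 0 in each library, PTPRC, TYROBP and C1QB in all 6, and the list summed to 0.684 to 3.79 FPKM. Only FCGR1A reached 1 FPKM, with 2.18 in C4-2B, and it was listed at 0 in all other libraries. Its log2 ratio of -1.67 in both TaxR and CabR was past the size rule, downward (all measured genes, 5.64% and 6.2%). The list summed to 3.79 (C4-2B), 1.33 (TaxR) and 0.684 FPKM (CabR), falling in the same order as CD68. In the DU145 lineage the sum was 1.12 (DU145), 0.936 (DTXR) and 1.61 FPKM (CTXR), which is not the order of CD68. A link between these markers and CD68 was not tested.

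KCNMA1, the BK channel gene, exchanged its order between the lineages. Its level was 39.1 FPKM in the C4-2B parent with 4.95 (TaxR) and 4.86 (CabR) in its sublines, and 1.91 FPKM in the DU145 parent with 5.56 (DTXR) and 26.3 (CTXR) in its sublines. The highest value of one lineage was its parent, and that of the other its cabazitaxel-resistant line, with TaxR, CabR and DTXR close together between 4.86 and 5.56. The log2 ratios were -2.75 (TaxR) and -2.77 (CabR) on one side and 1.17 (DTXR) and 3.23 (CTXR) on the other. CTXR stood above DTXR by a further 2.06, while CabR and TaxR differed by -0.02.

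LPAR3, the lysophosphatidic acid receptor gene, had in C4-2B the highest FPKM of any member in any library. It had 101.7 FPKM in the C4-2B parent with 29.5 (TaxR) and 11.5 (CabR) in its sublines, and 1.42 FPKM in the DU145 parent with 5.33 (DTXR) and 4.40 (CTXR) in its sublines. All 3 C4-2B-lineage libraries were above all 3 DU145-lineage libraries, so the gap between lineages was narrower in the resistant lines but still there. The log2 ratios were -1.75 (TaxR) and -3.04 (CabR) on one side and 1.39 (DTXR) and 1.16 (CTXR) on the other. CabR against TaxR was at -1.29, past the size rule, and CTXR against DTXR at -0.23.

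MLLT3, the histone reader gene, started from nearly equal parental levels. It had 5.06 FPKM in the C4-2B parent with 1.35 (TaxR) and 1.40 (CabR) in its sublines, and 4.80 FPKM in the DU145 parent with 14.6 (DTXR) and 28.9 (CTXR) in its sublines. The 2 parents differed by a log2 ratio of -0.06. Both resistant C4-2B lines were below them and both resistant DU145 lines above. The log2 ratios were -1.37 (TaxR) and -1.34 (CabR) on one side and 1.43 (DTXR) and 2.36 (CTXR) on the other. The smallest of its 4 ratios in size was 1.34, against 1.08 for RTN1, 1.16 for LPAR3, 1.17 for KCNMA1 and 1.18 for CD68.

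**Figure D1:**
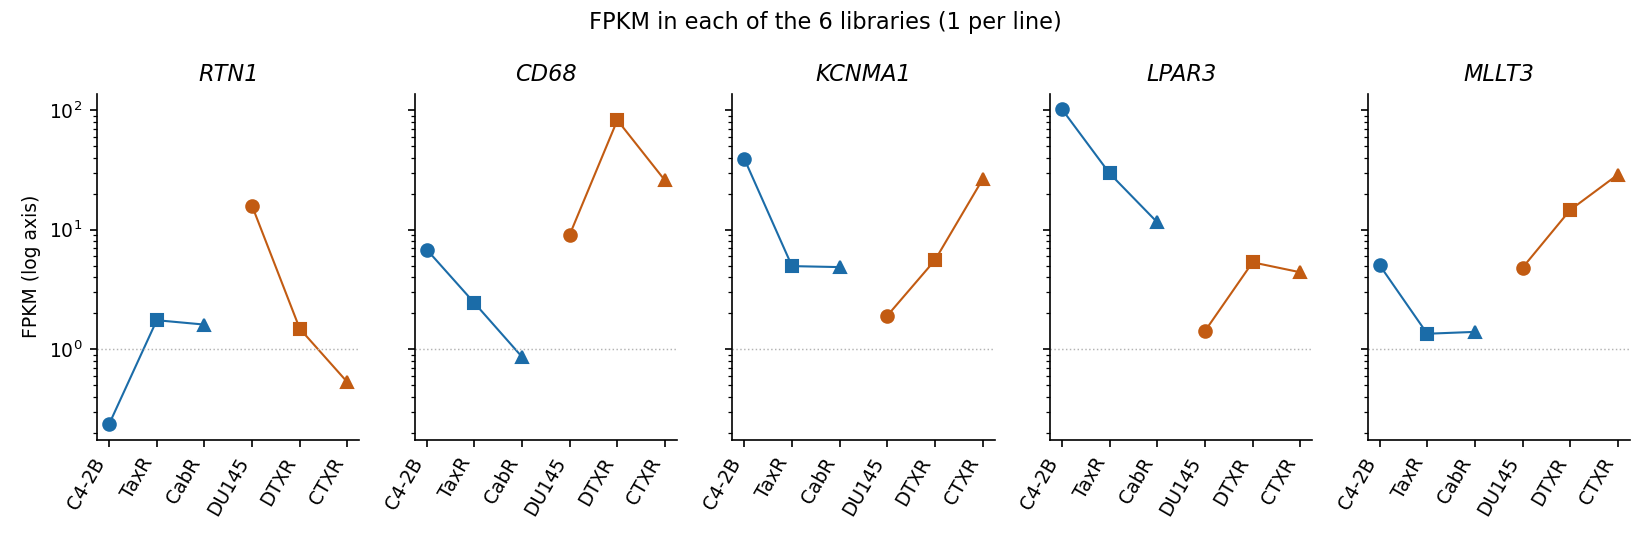
FPKM (log axis) of each member in the 6 libraries, 1 point per library, with the C4-2B lineage in blue and the DU145 lineage in orange; circles are parents, squares docetaxel-resistant lines, triangles cabazitaxel-resistant lines, and the dotted line is 1 FPKM. RTN1 goes from 0.236 to 1.61 FPKM across the C4-2B lineage and from 15.8 to 0.529 across the DU145 lineage, and the other 4 genes go the opposite way.

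Few genes differed this much in opposite directions. A log2 ratio of 1 or more was reached upward by 2.52% of measured genes in TaxR and 2.67% in CabR, and by 5.37% in DTXR and 7.45% in CTXR, always against the parent. Downward the shares were 5.64% (TaxR), 6.2% (CabR), 5.1% (DTXR) and 5.47% (CTXR). Both C4-2B lines lower and both DU145 lines higher was found for 13 genes, or 0.0746% of those measured, 4 of them members. The reverse was found for 5 genes, or 0.0287%, with RTN1 as the member. Of the 18 genes 12 are protein-coding. Since the rule used these comparisons, the percentages describe how many genes it picks and say nothing about the 5. A sign opposite between the lineages in all 4 lines, at any size, was seen for 3652 measured genes. Near the threshold, IRS1 (smallest size 1.03) and ICA1-AS1 (1.06) were just inside the rule, and MYO1E (0.995) and ABHD2 (0.999) just outside.

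**Figure D2:**
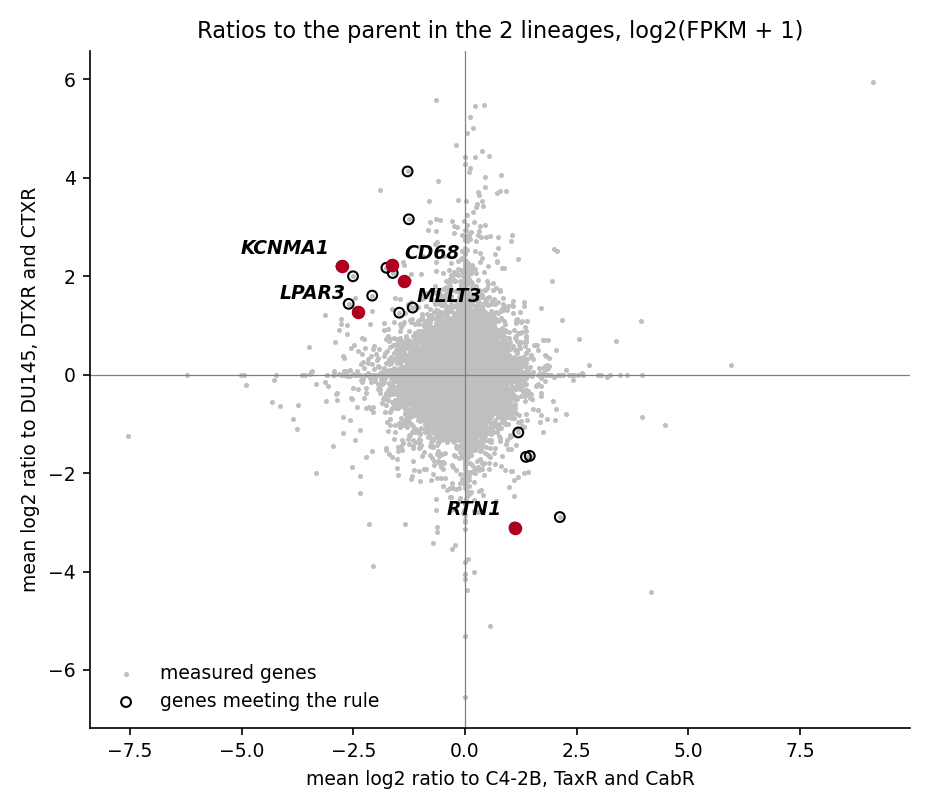
Mean log2 ratio of (FPKM + 1) to the parent in TaxR and CabR (horizontal axis) against that in DTXR and CTXR (vertical axis) for the 17436 measured genes (grey); black circles are the 18 genes that meet the rule and red points the 5 members. RTN1 lies at 1.11 and -3.11, and KCNMA1 at -2.76 and 2.20, away from the centre where most genes lie.

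The members were of 2 kinds by the gap between the lineages at each stage, taken as the log2 ratio of the DU145-side over the C4-2B-side library. For RTN1, KCNMA1 and LPAR3 the parents were far apart and the resistant lines closer. The RTN1 gap was 3.76 between the parents, -0.14 between DTXR and TaxR and -0.77 between CTXR and CabR, so its sign changed. For KCNMA1 it was -3.78, 0.14 and 2.22, so the order of the lineages turned over, past the size rule in CTXR against CabR. For LPAR3 it was -5.41, -2.27 and -1.21. These 3 genes were past the size rule between the parents, as were 36.7% of measured genes. For CD68 and MLLT3 the parents were close, at 0.37 and -0.06, and the resistant lines apart, at 4.60 and 3.85 for CD68 and 2.73 and 3.64 for MLLT3. Of all 18 genes that met the rule, 9 had a narrower gap at both resistant stages, 8 a wider one and 1 neither. These gaps were taken over the same 6 libraries that the rule used, and the rule forces the gap of every gene it picks to shift. With parents as close as for CD68 and MLLT3, a wider gap at both resistant stages was therefore certain. The grouping thus follows largely from the parental gap and is no separate result.

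**Figure D3:**
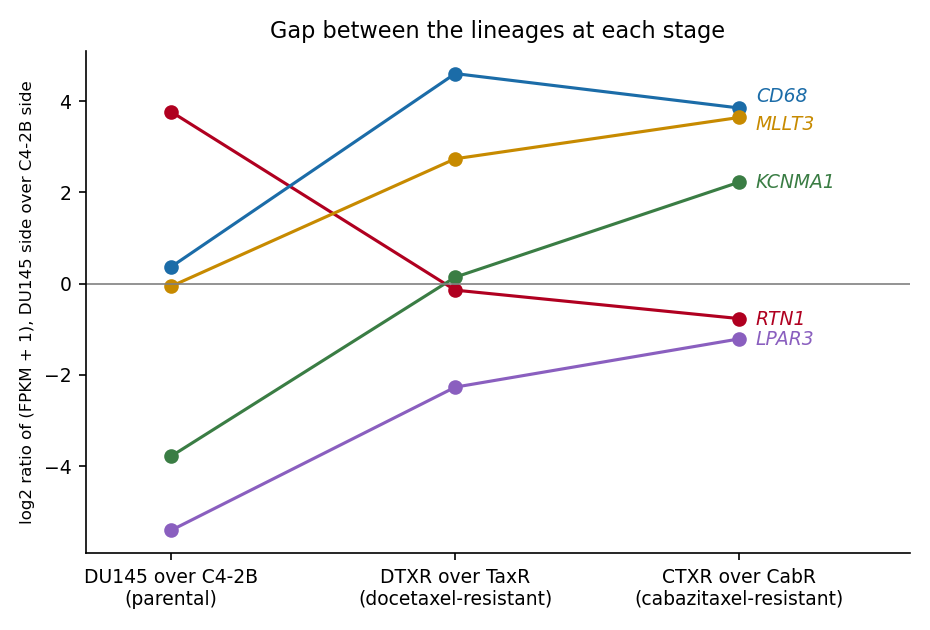
Log2 ratio of (FPKM + 1) of the DU145-side over the C4-2B-side library at the parental, docetaxel-resistant and cabazitaxel-resistant stage (horizontal axis), 1 line per member. RTN1, KCNMA1 and LPAR3 start at 3.76, -3.78 and -5.41 and end at -0.77, 2.22 and -1.21, with a change of sign for RTN1 and KCNMA1. CD68 and MLLT3 start near 0 and end at 3.85 and 3.64.

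The step from docetaxel to cabazitaxel resistance, which the rule did not use directly, was past the size rule for LPAR3 alone in the C4-2B lineage and for CD68 and KCNMA1 in the DU145 lineage. Over all measured genes 3.59% were past it in CabR against TaxR and 12.5% in CTXR against DTXR. The values were -0.08 for RTN1, -0.88 for CD68, -0.02 for KCNMA1, -1.29 for LPAR3 and 0.03 for MLLT3 from TaxR to CabR. From DTXR to CTXR they were -0.70, -1.64, 2.06, -0.23 and 0.94 in the same order. These steps share the resistant libraries with the ratios of the rule.

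The relatives and partners of each member were read from lists of genes chosen by function. Of 113 measured genes on these lists other than the members, each counted once, 1 met the rule, namely ENO2, the neuron-type enolase, on the neuroendocrine list. The median log2 ratio of all measured genes was between -0.0021 and 0 in the 4 comparisons with a parent.

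Among 17 measured ER-shaping genes beside RTN1, 1 was higher and 1 lower in each of TaxR and CabR. In DTXR 2 were lower and in CTXR 2 were higher. Of all measured genes 2.52% were higher and 5.64% lower in TaxR, 2.67% and 6.2% in CabR, 5.1% lower in DTXR and 7.45% higher in CTXR. The medians of the list ran from -0.35 in DTXR to 0.07 in CTXR. No other reticulon met the rule. RTN2 had 3.92 FPKM in the C4-2B parent with 2.48 (TaxR) and 2.40 (CabR) in its sublines, and 11.5 FPKM in the DU145 parent with 2.11 (DTXR) and 19.8 (CTXR) in its sublines, lower in DTXR alone. RTN3 and RTN4, which were far more abundant, had log2 ratios between -0.70 and 0.48. REEP1, an ER-shaping protein mutated in hereditary spastic paraplegia, was higher in TaxR and CabR, at 0.0999, 1.77 and 1.64 FPKM from C4-2B through TaxR to CabR, with ratios of -0.43 and -0.25 in DTXR and CTXR. The membrane-trafficking protein gene REEP6 was lower in DTXR (21.1 FPKM in the parent and 2.65 there) and stood at 0.35 in CTXR.

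RTN1 is also called neuroendocrine-specific protein, and other genes of neuroendocrine secretion were mostly silent. Of 15 listed, 5 reached 1 FPKM in any library, and CHGA, CHGB, NCAM1 and INSM1 were under 0.1 FPKM in all 6. Of these 5, 2 were lower in each of TaxR and CabR (all measured genes, 5.64% and 6.2%), and 1 was higher and 1 lower in each of DTXR (5.37% and 5.1%) and CTXR (7.45% and 5.47%). SYP, a synaptic vesicle protein gene, was lower in DTXR like RTN1 (5.78 FPKM in the parent and 2.14 there, a ratio of -1.11), and stood at -0.48 in CTXR and at -0.59 and -0.55 in TaxR and CabR. The measured genes SNAP25 and SYT1 had ratios of 0.52 and 0.28 in DTXR and of 0.45 and -0.19 in CTXR. ENO2 stood opposite to RTN1 in all 4 lines, and had 67.3 FPKM in the C4-2B parent with 10.7 (TaxR) and 9.84 (CabR) in its sublines, and 8.19 FPKM in the DU145 parent with 28.3 (DTXR) and 20.2 (CTXR) in its sublines. VGF, a neuropeptide precursor, was lower in both taxane-resistant C4-2B lines (11.2, 4.66 and 4.11 FPKM from C4-2B through TaxR to CabR) and in CTXR (34.7 FPKM in the parent and 0.853 there), but not in DTXR (38.9).

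Of 13 measured lysosomal membrane genes beside CD68, none was past the size rule in TaxR, 2 were lower in CabR, and 2 were higher in each of DTXR and CTXR. Of all measured genes 6.2% were lower in CabR, and 5.37% and 7.45% higher in DTXR and CTXR. The medians of the list were -0.07, -0.38, 0.59 and -0.02 in that order. LAMP3, the inducible family member, was higher in both DU145 lines, at 4.55 (DU145), 16.4 (DTXR) and 13.9 FPKM (CTXR), and stayed under 0.5 FPKM in the C4-2B lineage. LAMP1 and LAMP2, the main lysosomal membrane glycoproteins, had ratios of 0.65 and 0.76 in DTXR and between -0.65 and -0.02 in the other 3 lines. NPC1, which exports cholesterol from lysosomes, was lower in CabR (63.5 FPKM in the parent and 26.1 there). SLC17A5, the sialic acid exporter, stood at -0.78 (TaxR), -1.53 (CabR), 0.47 (DTXR) and 1.10 (CTXR), past the size rule in CabR and CTXR. It had the signs of CD68 in all 4 lines, and so did the measured list genes NPC1, CD63 and LAPTM4A. Opposite signs between the lineages, at any size and in either direction, were seen for 3652 measured genes.

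Of 24 measured lysosomal hydrolases and related lumen proteins, 5 were higher and 1 lower in DTXR, 2 were higher in CTXR, 1 was lower in CabR and none was past the rule in TaxR. Of all measured genes 5.37% were higher and 5.1% lower in DTXR, 7.45% higher in CTXR and 6.2% lower in CabR. The medians were 0.61 in DTXR, -0.05 in CTXR, -0.32 in TaxR and -0.38 in CabR. The cysteine protease CTSL had 68.4 (DU145), 347 (DTXR) and 167 FPKM (CTXR), and CTSB 55.2, 168 and 144. CTSD, an aspartic protease, was higher in DTXR only (169, 387 and 101), as was the sterol carrier NPC2 (47.7, 206 and 77.0). In the C4-2B lineage CTSL and CTSB had ratios between -0.25 and 0, so neither met the rule. Of 7 other measured scavenger receptors, the class that also counts CD68, only SCARA3 was past the rule, lower in DTXR as were 5.1% of all measured genes.

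BK channels take up auxiliary beta and gamma subunits that set how readily they open. Of 8 listed, 3 reached 1 FPKM in any library, and none was past the size rule in any resistant line. Of all measured genes 2.52% were higher and 5.64% lower in TaxR, and 2.67% and 6.2% in CabR. For DTXR the shares were 5.37% higher and 5.1% lower, and for CTXR 7.45% and 5.47%. A count of none in 3 genes is not far from these shares. LRRC26, a gamma subunit that lets the channel open at low calcium in epithelial and prostate cells, had 259 FPKM in the C4-2B parent with 288 (TaxR) and 193 (CabR) in its sublines, and 1.69 FPKM in the DU145 parent with 0.934 (DTXR) and 0.434 (CTXR) in its sublines. It was thus abundant in all C4-2B-lineage libraries and under 2 FPKM in the DU145 lineage. Of the beta subunits, KCNMB1 and KCNMB2 were listed at 0 in all 6 libraries, KCNMB3 lay between 1.34 and 3.78 FPKM, and KCNMB4 reached 1 FPKM in CTXR alone (1.12).

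Among 5 other measured channels opened by calcium or sodium, KCNT1, a sodium-activated channel, was higher in TaxR and CabR (0.303, 2.66 and 2.72 FPKM from C4-2B through TaxR to CabR). KCNN2, a small-conductance channel, was lower in CabR (15.4 FPKM in the parent and 4.56 there). KCNN4, the intermediate-conductance channel, was higher in CTXR (4.52 FPKM in the parent and 15.6 there), and KCNN1 was lower in DTXR (5.41 and 0.648). Of all measured genes 2.52% were higher in TaxR, 2.67% higher and 6.2% lower in CabR. The shares were 5.1% lower in DTXR and 7.45% higher in CTXR.

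Of the other 5 lysophosphatidic acid receptor genes, 3 were measured and none was past the rule in TaxR or CabR. The shares of all measured genes were 2.52% higher and 5.64% lower in TaxR, and 2.67% and 6.2% in CabR. They were 5.1% lower in DTXR and 7.45% higher in CTXR. LPAR2, abundant in the C4-2B lineage, had 25.8 (C4-2B), 27.9 (TaxR) and 24.8 FPKM (CabR). Its ratios of 0.11 (TaxR) and -0.06 (CabR) were not past the size rule in the lines where LPAR3 was lower. In the DU145 lineage LPAR2 was lower in DTXR (8.0 FPKM in the parent and 1.79 there) and had 12.03 FPKM in CTXR. LPAR1 was higher in CTXR, with 2.10 (DU145), 2.26 (DTXR) and 26.5 FPKM (CTXR), and was nearly silent in the C4-2B lineage. On the FPKM scale, which is per length, the receptor gene with the highest level was LPAR3 in C4-2B, TaxR and DTXR, LPAR2 in CabR and DU145, and LPAR1 in CTXR.

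Of 13 measured enzymes that make or remove lysophosphatidic acid, 1 was lower in TaxR and none was past the rule in CabR, while 2 were higher in DTXR and 3 in CTXR. The shares of all measured genes were 5.64% lower in TaxR, and 5.37% and 7.45% higher in DTXR and CTXR. Autotaxin, ENPP2, the main secreted producer, stayed under 0.4 FPKM in all 6 libraries. LIPI, a phospholipase that makes the lipid at membranes, had 0.0477 FPKM in DU145, 11.7 in DTXR and was listed at 0 in CTXR. The lipid phosphatase PLPP1 was far higher in C4-2B (565 FPKM) than in DU145 (15.0), and no resistant line was past the rule. PLPP2, of the same family, was lower in TaxR (13.9 FPKM in the parent and 4.84 there). Of the related sphingosine 1-phosphate receptors, S1PR4 was lower in TaxR and CabR, from 1.80 FPKM in C4-2B (all measured genes, 5.64% and 6.2%). The other 3 measured were not past the size rule in any resistant line.

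Of 11 other measured genes of the super elongation complex, 1 was higher in each of TaxR and CabR, 1 lower in CabR, none past the rule in DTXR and 1 lower in CTXR. Of all measured genes 2.52% and 2.67% were higher in TaxR and CabR, 6.2% lower in CabR and 5.47% lower in CTXR. MLLT1 (ENL), the paralog that takes the same place in the complex, had ratios from -0.27 to 0.12 and exceeded MLLT3 in every library except CTXR, where it had 25.7 FPKM against 28.9. DOT1L, the histone H3 lysine methyltransferase, had 33.0 (C4-2B), 22.1 (TaxR) and 21.8 FPKM (CabR), and 18.96 to 19.97 in the DU145 lineage. EAF2, a partner of the ELL elongation factors, was the gene higher in TaxR and CabR (5.05, 14.4 and 12.9 FPKM from C4-2B through TaxR to CabR). The elongation factor ELL2 was lower in CabR (49.4 FPKM in the parent and 17.3 there), and the scaffold AFF1 in CTXR (10.1 FPKM in the parent and 4.52 there, a ratio of -1.01). Among YEATS-domain proteins, YEATS2 was lower in TaxR and CabR, like MLLT3, at 29.8, 10.7 and 12.4 FPKM, but stood at 0.21 and 0.24 in DTXR and CTXR.

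**Figure D4:**
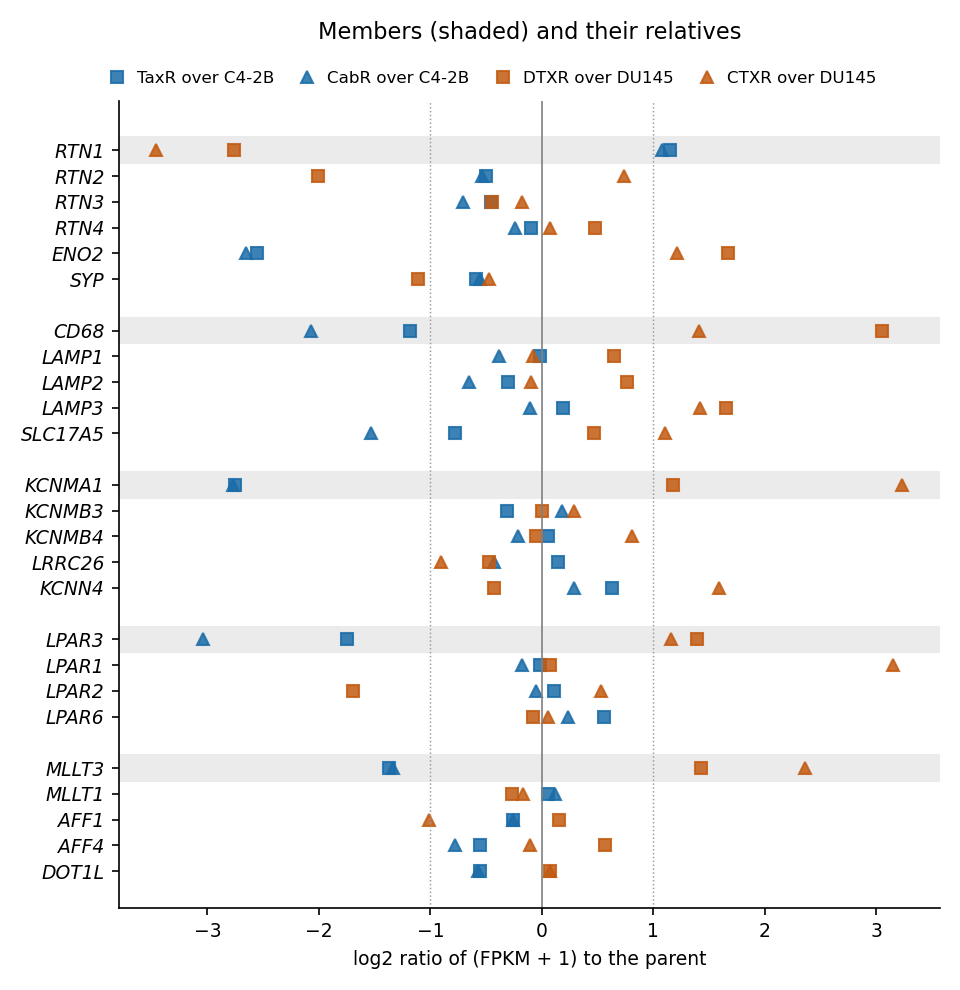
Log2 ratio of (FPKM + 1) to the parent (horizontal axis) for the members (shaded rows) and their relatives in the 4 resistant lines; blue is the C4-2B lineage, orange the DU145 lineage, squares docetaxel-resistant and triangles cabazitaxel-resistant lines, and dotted lines mark -1 and 1. In each shaded row the blue and orange points lie beyond opposite dotted lines, and ENO2 is the one relative shown that does so too.

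The genes beside the members on the chromosome mostly differed less from the parent than the size rule asks. Of 20 flanking measured coding genes, 2 on each side of each member, none was past the size rule in TaxR or CabR. LRMDA alone was higher in DTXR and CTXR. Of all measured genes 2.52% were higher and 5.64% lower in TaxR, and 2.67% and 6.2% in CabR. For DTXR the shares were 5.37% higher and 5.1% lower, and for CTXR 7.45% and 5.47%. Counts of none or 1 in 20 genes are not far from these shares. LRMDA lies 309433 bases from KCNMA1 and had 0.905 (DU145), 9.18 (DTXR) and 5.23 FPKM (CTXR), with 0.45 FPKM or less in the C4-2B lineage. CD68 lies 461 bases from EIF4A1, an abundant translation factor gene on the same strand, whose ratios of -0.37 to 0.21 were small. An antisense gene that overlaps CD68 (ENSG00000233223) had 66.2 (C4-2B), 70.2 (TaxR) and 66.5 FPKM (CabR), and 8.06 to 10.8 in the DU145 lineage. The ratios of this antisense gene were between -0.15 and 0.23. The use of strand in counting is not given, so CD68 and this gene may share reads, which was not tested. A second overlapping transcript (ENSG00000264772, on the strand of CD68) lay between 1.71 and 3.47 FPKM. The 11 genes that overlap RTN1, KCNMA1 or MLLT3 were listed at 0 in every library, and none overlaps LPAR3.

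The genes most like each member were taken by the Euclidean distance between the 4 log2 ratios to the parent, over 4 resistant lines. Only measured genes with a gene symbol were searched, and those with clone-type or LINC names were left out. For RTN1 they were IL11 (distance 1.02), GSPT2 (1.27) and IER3 (1.36). IL11, a cytokine gene, had 0.545 FPKM in the C4-2B parent with 2.01 (TaxR) and 2.65 (CabR) in its sublines, and 14.3 FPKM in the DU145 parent with 1.98 (DTXR) and 1.62 (CTXR) in its sublines. For CD68 they were RN7SL23P (0.66), MYO1E (0.75) and DHRS3 (1.47), of which RN7SL23P is a short repeated RNA gene with uncertain reads. DHRS3, a retinaldehyde reductase, had 30.5 FPKM in the C4-2B parent with 4.31 (TaxR) and 4.79 (CabR) in its sublines, and 1.36 FPKM in the DU145 parent with 16.2 (DTXR) and 4.2 (CTXR) in its sublines.

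KCNMA1 had no close match among the genes searched, its nearest being SEMA4B (1.68), VPS11-DT (1.89) and TSC22D3 (2.05). For LPAR3 they were SLC16A3 (0.52), STARD4 (0.57) and ENO2 (0.93). SLC16A3, the lactate exporter MCT4, had 620 FPKM in the C4-2B parent with 205 (TaxR) and 96.7 (CabR) in its sublines, and 32.2 FPKM in the DU145 parent with 71.1 (DTXR) and 63.7 (CTXR) in its sublines. For MLLT3 they were SEMA4B (0.64), DUOX1 (0.68) and SOX4 (0.78). SEMA4B, a transmembrane semaphorin, had 39.1 FPKM in the C4-2B parent with 11.01 (TaxR) and 13.2 (CabR) in its sublines, and 14.7 FPKM in the DU145 parent with 37.3 (DTXR) and 111.5 (CTXR) in its sublines. Of these genes RN7SL23P, DHRS3, SEMA4B and ENO2 met the rule themselves.

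After rescaling all libraries to the same total, the same upper quartile, by median-ratio size factors or to the same total without mitochondrial genes, all 20 ratios of the members stayed past the size rule. Pseudocounts of 0.1 and 0.5 can only enlarge a ratio, so the ratios had to stay past it there. With a pseudocount of 5, 8 of the 20 were under 1 in size and no member met the rule, with no change of sign, RTN1 standing at 0.37 in TaxR and 0.34 in CabR.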

How the data were processed

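Each library has a table in which the authors deposited FPKM for every Ensembl gene identifier, per the file headers. The submitters' processing notes name HISAT, StringTie, Cuffnorm and GRCh38, without versions. For annotation, strand use and scaling between libraries the sources used here give nothing. Symbols came from a name table for 56550 of 60658 identifiers and otherwise from GENCODE 29 (57047 matched), which gave biotypes and GRCh38 coordinates. FPKM are model-based estimates, so an exact 0 can be a failed estimate, and depth is unknown.

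Ratios are of FPKM + 1 on the log2 scale, without rescaling, which understates changes of low genes. Genes that reached 1 FPKM in at least 1 library were kept. A gene was called by a log2 ratio of 1 or more in size. No count model was fitted and no p-value computed. The members and lists were chosen with earlier results of these data known. Genes named beside the members were list members past the size rule, close relatives, neighbours, the 3 nearest in pattern with a gene symbol, and the 2 on each side of the threshold, and a few others were named after their values were seen. Some items are not reported here. The rule was run on simulated data with opposite shifts well past the threshold, planted in genes well expressed in both parents. Recovery could hardly fail there, so this checks the code and says nothing about the members. Other pseudocounts, filters, rescalings, thresholds and leaving out each resistant line in turn were tried. Python 3.11.15 with numpy 2.4.6, pandas 2.3.3 and matplotlib 3.10.9 was used.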

Additional observations from a re-analysis of the deposited data

Results flagged for a closer look

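Genes whose 2 resistant lines moved one way in the C4-2B lineage and the other way in the DU145 lineage include the 5 members by construction. The difference between lineages was not tested. As the mean log2 ratio of DTXR and CTXR minus that of TaxR and CabR it was -4.22 for RTN1, 3.86 for CD68, 4.97 for KCNMA1, 3.67 for LPAR3 and 3.25 for MLLT3. For the other genes named above it was 3.93 for RN7SL23P, 4.51 for DHRS3, 3.68 for SEMA4B, 4.04 for ENO2, 2.53 for IRS1 and -3.04 for ICA1-AS1.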

How the results depend on the processing

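No paired analysis was possible because each line has 1 library. All 5 members met the rule under every alternative except a pseudocount of 5 and a log2 threshold of 1.5, each leaving 0, and the highest DU145-type share taken from TaxR, which left 4 (RTN1 at 0.82 in TaxR), and no ratio of a member changed sign. The members could not fail with pseudocounts of 0.1 and 0.5, with a threshold of 1.5-fold or with a line left out. The filters and the restriction to coding genes could not drop them either, so those passes show nothing about stability. The 13 genes lower in the C4-2B and higher in the DU145 lines became 82, 28 and 1 with pseudocounts of 0.1, 0.5 and 5, 90 with a threshold of 1.5-fold and 0 with a log2 threshold of 1.5, and 35, 45 and 40 without TaxR, DTXR or CTXR. The 5 genes with the reverse pattern became 56, 16 and 0 with pseudocounts of 0.1, 0.5 and 5, 37 and 0 with those thresholds, and 15, 17, 14 and 11 without TaxR, CabR, DTXR or CTXR. They became 3 at the same total FPKM, 8 at the same total without mitochondrial genes and, in alternatives chosen after seeing the data, 3 and 2 with the median and highest DU145-type share taken from TaxR and 2 in protein-coding genes. Leaving out a line asks less of a gene, so these counts can be no smaller. Genes past the size rule numbered 1422 in TaxR, 1547 in CabR, 1826 in DTXR, 2252 in CTXR, 626 in CabR against TaxR, 2186 in CTXR against DTXR and 6404 between the parents. With a pseudocount of 0.1 the first 6 were 3145, 3260, 3445, 3997, 2074 and 3919, and with 5 all 7 were 351, 434, 559, 729, 112, 679 and 3059. CabR against TaxR gave 1020 with a pseudocount of 0.5. With a filter at 5 FPKM, TaxR gave 867, CabR 991, DTXR 1181 and CabR against TaxR 345. The same total FPKM moved the median of all genes by -0.12 in TaxR. Depth is unknown, so the precision of low values such as RTN1 in C4-2B (0.236 FPKM) cannot be given.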
